A study of Mus musculus with 6 samples.

Results

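The genes described here are those of the mitogen-activated protein (MAP) kinase cascade and of the dual-specificity phosphatases (DUSPs), chosen by name from the authors' table of differentially methylated regions: every entry whose gene name begins with Mapk, Map2k, Map3k or Map4k and a digit, with Mapk8ip or Mapkap, or with Dusp and a digit, except Dusp7. This gave 54 annotation entries, which collapse to 29 distinct regions in 17 genes, out of 9707 distinct regions in the whole table, of which 6501 carry a gene name. Each library was made from 1 mouse blastocyst (embryonic day 4.5) and read by whole-genome bisulfite sequencing, in which unmethylated cytosines are read as thymine. Depressed-RNA embryos (3, replicates 1, 3 and 4) had been microinjected as fertilised eggs with sperm small RNAs of males with stress-induced depression, and normal-RNA embryos (3, replicates 1, 2 and 4) with those of normal males. All eggs were of C57BL/6 background, the RNA was given at 2 ng/µl, and both groups were cultured and collected about 108 h later. No uninjected embryos are among the samples used here, so both groups share the injection itself. The question put by the design is whether sperm small RNAs of stressed males are followed by another methylation pattern in the embryo.

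In the MAP kinase cascade, a MAP3K phosphorylates a MAP2K, which phosphorylates a MAP kinase of the ERK, JNK or p38 type, and scaffold proteins hold these enzymes together. MAPKAP kinases act below the MAP kinases, and the MAP kinase phosphatases among the DUSPs remove the activating phosphates. In the mouse blastocyst, ERK signalling below FGF4 is known to drive inner cell mass cells towards primitive endoderm, and p38 activity is known to take part in trophectoderm function. DNA methylation in mammals is mostly at CG, while CHG and CHH methylation (H is any base but G) is scarce in most cell types.

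For each region the table gives the authors' mean methylation level of each group, in percent here, and the number of cytosines of the named context. It has no values per embryo and no read depth, so no level has a spread, no difference could be set against the spread between embryos, and nothing below is a test between embryos. All listed regions were called different by the authors, so that a member differs between the groups is given by the list. What can be compared is direction, size, position and the number of genes, beside the same over all regions listed with a gene name. The members were chosen by gene name, with earlier results of these data known, so these comparisons describe the list only.

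Most regions of the cascade were lower in depressed-RNA embryos. Of the 29 regions, 25 were lower in depressed-RNA embryos and the other 4 were higher. The share of lower regions was 86.2% (exact binomial interval over regions, 95%, 68.3 to 96.1%, which describes the list and not the embryos), against 53.4% of the 6501 regions with a gene name. This interval and the one below take regions as independent. The 29 regions fall on 23 places, and Mapk8ip3 carries 7 of the 29, so the intervals are likely too narrow. The contexts were mixed in other shares than in the table, with 1 CG, 13 CHG and 15 CHH regions. CHG regions made up 44.8% of the members and 26.8% of all regions with a gene name, and CG regions 3.45% and 10.2%. The 13 CHG regions were all lower in depressed-RNA embryos, beside 91.1% of all CHG regions with a gene name. Of the 15 CHH regions, 11 were lower in depressed-RNA embryos and the other 4 were higher. That is 73.3% lower (interval 44.9 to 92.2%), while 30% of all CHH regions with a gene name were lower and 70% were higher. Mapk8ip3 carried 4 of the 11 lower CHH regions, and without this gene 7 lower and 4 higher ones were left. With Map3k20, a MAP3K gene listed under an older name that the rule does not take, 11 were lower and 6 higher.

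**Figure D1:**
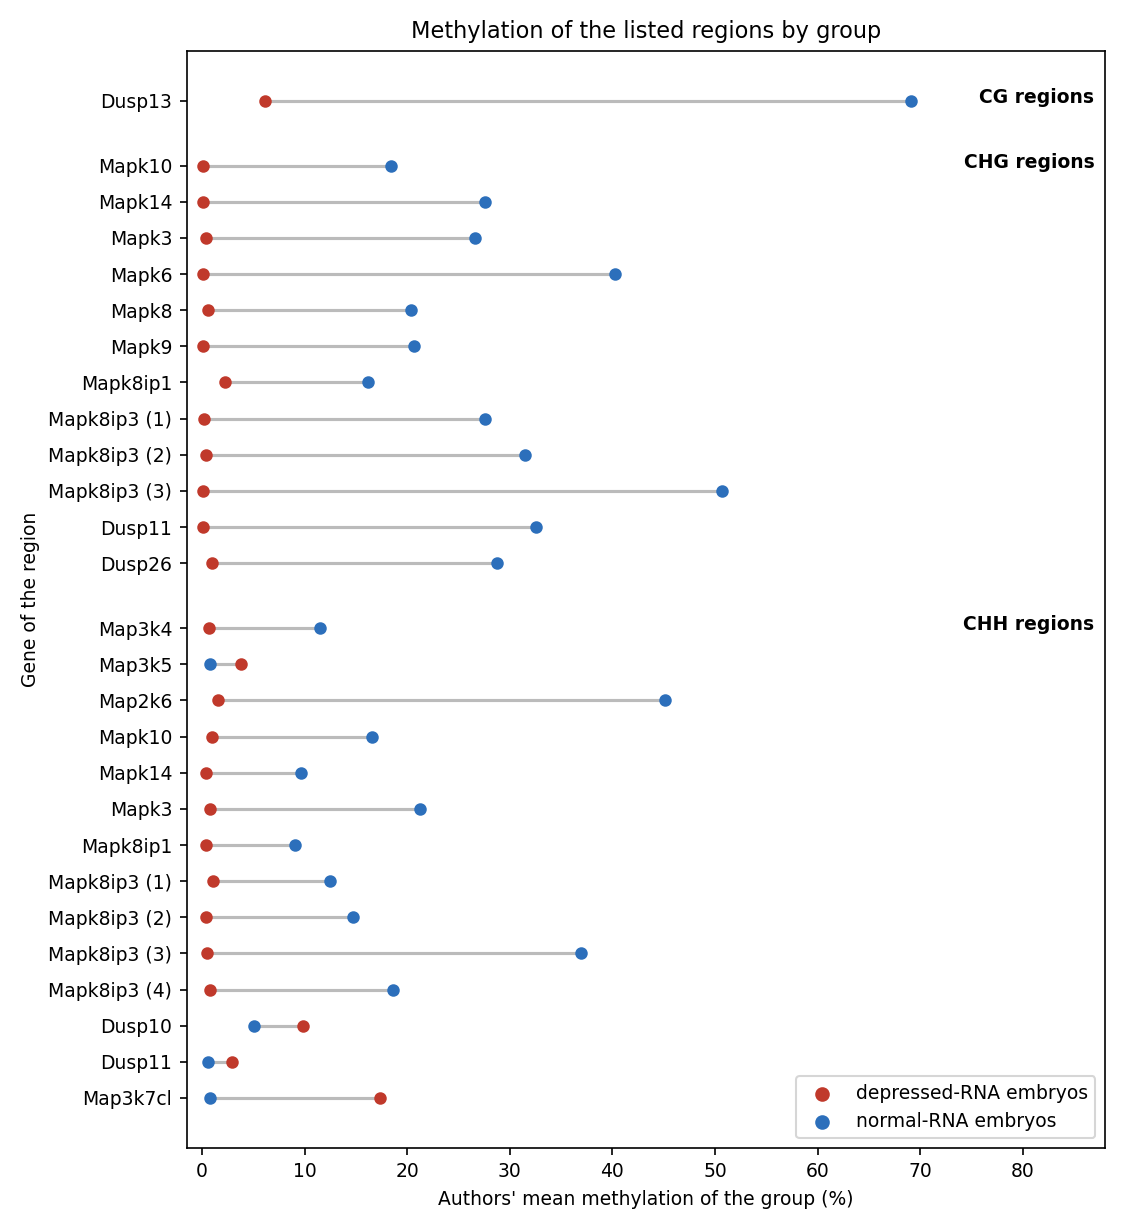
Authors' mean methylation (x axis, percent) of depressed-RNA embryos (red) and normal-RNA embryos (blue) in each region described by gene, ordered by context and role; the grey line joins both means, and numbers in brackets order the regions of a gene by coordinate. Red points of the CHG regions lie between 0.0497 and 2.26% and blue points between 16.1 and 50.6%; in 4 CHH regions the red point lies to the right of the blue one.

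The MAP kinases themselves, the lowest tier of the cascade, carried the most genes with a region. Of 13 MAP kinase genes in RefSeq, 7 (53.8%) had a CHG region lower in depressed-RNA embryos, beside 6.4% of 21900 protein-coding genes. Among these were Mapk3 (ERK1), Mapk6 (the atypical kinase ERK3), Mapk8, Mapk9 and Mapk10 (JNK1, JNK2 and JNK3) and Mapk14 (p38 alpha). The median CHG level over the 7 genes was 0.109% in depressed-RNA embryos and 26.6% in normal-RNA embryos. Of the 7 genes, 4 (Mapk3, Mapk10 and Mapk14 among them) also had a CHH region lower in depressed-RNA embryos, and 0 had a region that was higher. The other 6 MAP kinase genes, among them the p38 genes Mapk11, Mapk12 and Mapk13 and the ERK5 gene Mapk7, had no listed region.

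Mapk3, which encodes ERK1, had its regions in the 3′ UTR. The CHG region (mm10, chromosome 7, 126765356 to 126765502; exon and 3′ UTR, 14 cytosines) was at 0.361% in depressed-RNA embryos against 26.6% in normal-RNA embryos, and its centre lay 0.387 kb inside the RefSeq gene end. There the CHH region (126765338 to 126765527, 49 cytosines) was at 0.803% in depressed-RNA embryos against 21.2% in normal-RNA embryos. The Mapk3 regions are listed for the promoter of the neighbouring gene Gdpd3 as well.

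Mapk6 differed from Mapk3 in position. Its CHG region (chromosome 9, 75398292 to 75398386, 6 cytosines) carries promoter, 5′ UTR and exon entries, at 0.0762% in depressed-RNA embryos and 40.2% in normal-RNA embryos, the highest normal level among the MAP kinases. The region lay 11.7 kb inside the gene from its RefSeq start, so the promoter entry is not that of the start of the RefSeq span. ERK3 lacks the usual activation motif of the other MAP kinases.

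Each of the 3 JNK genes had a CHG region lower in depressed-RNA embryos. The JNKs are the stress-activated MAP kinases that phosphorylate c-Jun, and JNK3 is known for its expression in the nervous system. Mapk8 was at 0.587% in depressed-RNA embryos and 20.4% in normal-RNA embryos (chromosome 14, 33381050 to 33381189; exon and 3′ UTR, 9 cytosines), with the region 3.22 kb before the end of the RefSeq gene. Mapk9 was at 0.0824% in depressed-RNA embryos and 20.7% in normal-RNA embryos in an intron (chromosome 11, 49855460 to 49855513, 7 cytosines). Mapk10 was at 0.109% in depressed-RNA embryos and 18.4% in normal-RNA embryos in an intron that overlaps a LINE-1 repeat (chromosome 5, 103104876 to 103104956, 6 cytosines). A CHH region of 1375 bp at the same place in Mapk10 (103104879 to 103106253, 62 cytosines) was at 0.943% in depressed-RNA embryos against 16.6% in normal-RNA embryos. In CHG context the 3 JNK genes thus ranged from 0.0824 to 0.587% in depressed-RNA embryos and from 18.4 to 20.7% in normal-RNA embryos, with Mapk8 listed in its 3′ UTR and the other two in introns.

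Mapk14, the p38 alpha gene, carried regions at 2 places. In an exon and the 3′ UTR its CHG region (chromosome 17, 28748195 to 28748272, 9 cytosines) was at 0.0497% in depressed-RNA embryos, the lowest level among the members, and 27.6% in normal-RNA embryos, and its centre lay 0.172 kb from the RefSeq gene end. In an intron over a SINE repeat, the CHH region (28724381 to 28724676, 59 cytosines) was at 0.370% in depressed-RNA embryos and 9.61% in normal-RNA embryos.

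Upstream kinases were listed in CHH context within introns only. Of 18 MAP3K genes 2 had a region (11.1%; 3, or 16.7%, with the older name of Map3k20) and of 7 MAP2K genes 1 had one (14.3%), shares not far from the 18% of protein-coding genes with any region, while 0 of 5 MAP4K genes did. Map2k6 encodes MKK6, a kinase that activates p38. Its region (chromosome 11, 110520661 to 110520865; intron with a LINE-1 repeat, 37 cytosines) was at 1.54% in depressed-RNA embryos and 45.1% in normal-RNA embryos, the largest CHH difference of the members (-43.6 percentage points, depressed minus normal). In Map3k4, which encodes MEKK4, an activator of the p38 and JNK branches, the region (chromosome 17, 12254615 to 12254890, 62 cytosines) was at 0.668% in depressed-RNA embryos against 11.5% in normal-RNA embryos. Map3k5, which encodes the stress-activated kinase ASK1, went the other way. Its intronic region over a B1 SINE repeat (chromosome 10, 19988458 to 19988698, 99 cytosines) was at 3.82% in depressed-RNA embryos and 0.740% in normal-RNA embryos. Map3k20 is listed under its older name Zak, which the name rule does not take. It had 2 intronic CHH regions that were higher in depressed-RNA embryos, at 3.77% in depressed-RNA embryos against 0.558% in normal-RNA embryos and at 6.16% in depressed-RNA embryos against 0.0730% in normal-RNA embryos.

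**Figure D2:**
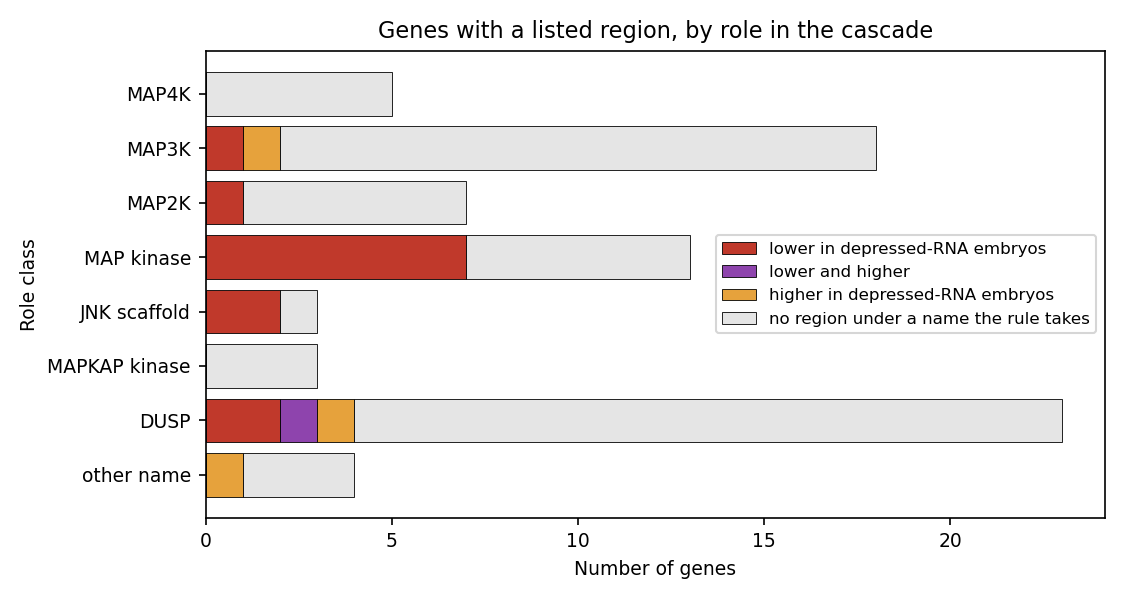
Number of RefSeq genes matching the name rule in each role class (x axis), split by whether their listed regions were lower in depressed-RNA embryos, lower and higher, or higher, or whether no region stands under a name the rule takes, which is where Map3k20, listed as Zak, is counted. The 7 MAP kinase genes with a region and both JNK scaffold genes with one fall in the lower class, while MAP4K and MAPKAP kinase genes have none.

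The JNK scaffolds were the other class with most of its genes in the table. Mapk8ip1 and Mapk8ip3 encode JIP1 and JIP3, which bind JNK and its upstream kinases and link cargo to kinesin in axons. Of 3 genes of this class, 2 had a region (66.7%, beside 18% of protein-coding genes). All regions of these 2 were lower in depressed-RNA embryos, and Mapk8ip2 had none. Each of these 2 had lower CHG and lower CHH regions, which 6.4% and 5.37% of protein-coding genes had. In Mapk8ip1, the CHG region (chromosome 2, 92386896 to 92387073; exon and CpG island shore, 25 cytosines) was at 2.26% in depressed-RNA embryos and 16.1% in normal-RNA embryos, the smallest difference of the 13 CHG regions. The CHH region that spans it (92386105 to 92387101, 93 cytosines) was at 0.380% in depressed-RNA embryos against 9.10% in normal-RNA embryos.

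Mapk8ip3 carried 7 of the 29 regions, 3 CHG and 4 CHH, at 5 separate places on chromosome 17. The strongest were a CHG region (24898791 to 24899046; 3′ UTR, exon and intron, 26 cytosines) at 0.0522% in depressed-RNA embryos and 50.6% in normal-RNA embryos, and the CHH region around it (24898319 to 24899103, 114 cytosines) at 0.508% in depressed-RNA embryos and 36.9% in normal-RNA embryos. The authors' region statistic sums along a region, and its full calculation is not described. By its size these regions ranked 25 of 1715 lower CHG regions and 23 of 1415 lower CHH regions. Both hold many cytosines, 26 and 114, beside medians of 10 (lower CHG) and 59 (lower CHH). By difference between the groups they stood less high. The CHG difference was larger than that of 79.6% of the 1715, and the CHH difference than that of 77.2% of the 1415. A region in the middle of the gene, with promoter, exon and intron entries (CHH, 24916970 to 24917240, 60 cytosines), was at 0.721% in depressed-RNA embryos and 18.6% in normal-RNA embryos. The remaining 4 regions lay outside the RefSeq span of Mapk8ip3, 1184 to 3225 bp beyond its 3′ end, and the table lists them for the neighbours Eme2, Mrps34 or Nme3 too. Of these, a CHG region at 24894133 to 24894281 (19 cytosines) was at 0.222% in depressed-RNA embryos and 27.5% in normal-RNA embryos, and another at 24896073 to 24896136 (7 cytosines) at 0.366% in depressed-RNA embryos and 31.5% in normal-RNA embryos. The CHH region at 24894447 to 24894873 (85 cytosines) was at 1.03% in depressed-RNA embryos against 12.5% in normal-RNA embryos, and that at 24896068 to 24896322 (53 cytosines) at 0.341% in depressed-RNA embryos against 14.7% in normal-RNA embryos. Bisulfite levels of these 4 regions cannot be assigned to one of the overlapping genes.

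**Figure D3:**
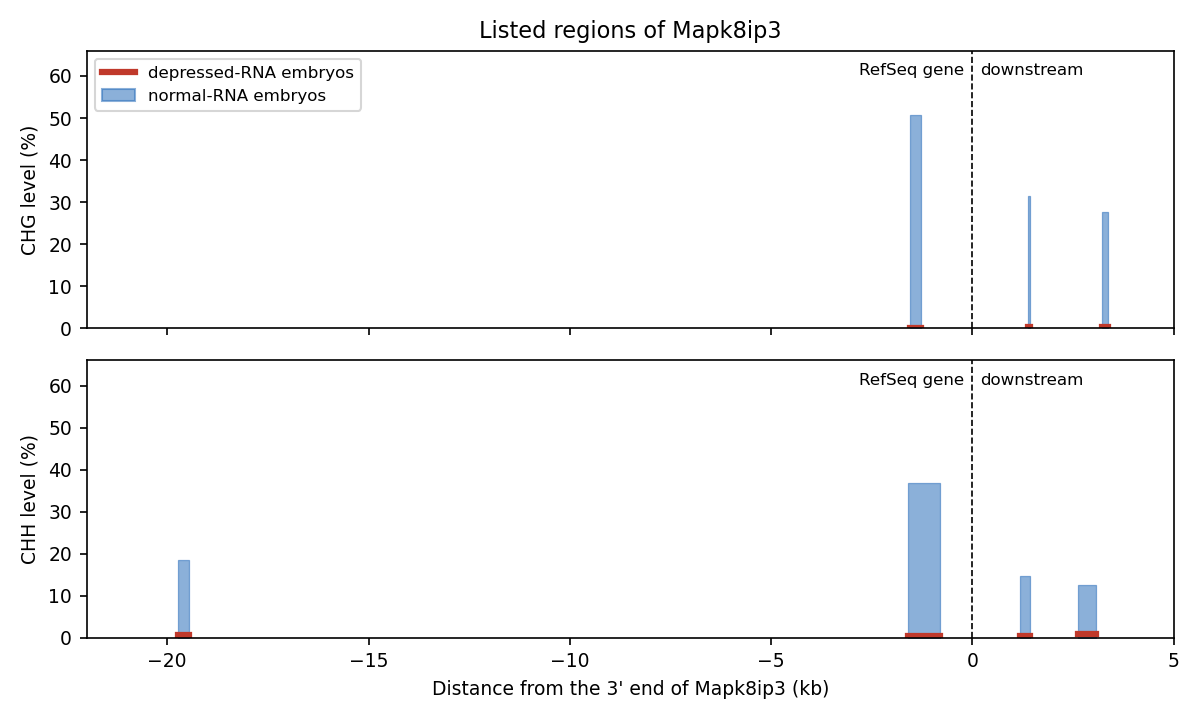
Levels of the 7 regions listed for Mapk8ip3 (y axis, percent; CHG above, CHH below) against distance from the 3′ end of its RefSeq span (x axis, kb; negative values lie inside the gene). Red lines mark depressed-RNA embryos and blue blocks normal-RNA embryos, with block width equal to region length; the highest blocks, 50.6 and 36.9%, lie just inside the gene end.

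Among the phosphatases, 4 of 23 DUSP genes other than Dusp7 had a region (17.4%, beside 18% of protein-coding genes), spread over the 3 contexts. Only Dusp13 had a CG region, and it was the only CG region of the members. Dusp13 encodes an atypical DUSP known from testis and skeletal muscle. The region (chromosome 14, 21746337 to 21746400; 3′ UTR, exon and intron entries, 5 CpGs) was at 6.15% in depressed-RNA embryos and 69.1% in normal-RNA embryos, close to the medians of 5.11% in depressed-RNA embryos and 70.4% in normal-RNA embryos over all 655 lower CG regions with a gene name. The Dusp13 region lay 2.28 kb inside the gene from its RefSeq start, so the 3′ UTR entry is not that of the end of the RefSeq span. In all, 1 of 76 genes matching the rule had a CG region lower in depressed-RNA embryos (1.32%), beside 2.54% of protein-coding genes. Dusp26, which encodes a phosphatase known from neural and endocrine tissue, had a CHG region in an exon and the 3′ UTR (chromosome 8, 31096557 to 31096645, 10 cytosines) at 0.934% in depressed-RNA embryos and 28.7% in normal-RNA embryos.

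Dusp11 and Dusp10 had regions that were higher in depressed-RNA embryos. Dusp11 encodes a phosphatase that acts on RNA 5′ ends rather than on MAP kinases. It was the only gene of the 17 with regions of both directions. Its CHG region, with intron, promoter and repeat entries (chromosome 6, 85954032 to 85954122, 6 cytosines), was at 0.0739% in depressed-RNA embryos and 32.5% in normal-RNA embryos. That region lay 7.7 kb inside the gene from its RefSeq start, so the promoter entry is not that of the start of the RefSeq span. The CHH region of Dusp11, in an intron with LINE-1 and MIR repeats (85948316 to 85948501, 74 cytosines), was at 2.94% in depressed-RNA embryos and 0.576% in normal-RNA embryos. Dusp10 encodes a phosphatase of JNK and p38. The classical MAP kinase phosphatase genes considered, other than Dusp7, were Dusp1, Dusp2, Dusp4, Dusp5, Dusp6, Dusp8, Dusp9, Dusp10 and Dusp16. Of these 9, only Dusp10 had a region, beside 18% of protein-coding genes. This intronic CHH region (chromosome 1, 184063242 to 184063483, 155 cytosines) was at 9.87% in depressed-RNA embryos and 5.07% in normal-RNA embryos, with the smallest ratio between groups of the 29 regions, 1.95. Dusp7, an ERK phosphatase gene that the name rule leaves out, carried 4 regions, all lower in depressed-RNA embryos. The early response phosphatases Dusp1, Dusp5 and Dusp6, which MAP kinase signals are known to induce, had no listed region.

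The name rule also takes genes that are not part of the cascade. Map3k7cl, which resembles the C-terminal end of the kinase TAK1 and has no kinase domain, had an intronic CHH region (chromosome 16, 87589370 to 87589486, 41 cytosines) at 17.3% in depressed-RNA embryos and 0.786% in normal-RNA embryos. Its difference was larger than that of 97.1% of the 5528 higher CHH regions. Mapkap1, a subunit gene of the mTORC2 complex, had no region, and neither did the 3 MAPKAP kinase genes.

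Counted by gene, 17 of 76 protein-coding genes that match the rule had a region under a name the rule takes. With older names matched as they were for all genes, which adds Map3k20, it was 18 of 76 (23.7%), beside 18% of 21900 protein-coding genes. By context and direction, 11 of the 76 had a lower CHG region (14.5%, beside 6.4% of all genes), 8 a lower CHH region (10.5%, beside 5.37%) and, with Map3k20, 5 a higher CHH region (6.58%, beside 9.11%). Longer genes can hold more regions. The 17 genes had a median RefSeq span of 41.3 kb (6.19 to 304.1 kb, Mapk3 and Mapk10), the other 59 genes, Map3k20 among them, 20.8 kb, and all protein-coding genes with a region 57.1 kb. Gene length was not adjusted for in these counts.

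In size, the lower CHG regions of the cascade lay near the middle of those of the table, and the lower CHH regions had a lower median in normal-RNA embryos. Over the CHG members the medians were 0.222% in depressed-RNA embryos and 27.5% in normal-RNA embryos, beside 0.174% in depressed-RNA embryos and 30.9% in normal-RNA embryos over the 1588 lower CHG regions with a gene name. The ratio of the normal to the depressed level had a median of 124-fold in the members and 124-fold in those regions. Over the lower CHH members the medians were 0.668% in depressed-RNA embryos and 16.6% in normal-RNA embryos, beside 0.625% in depressed-RNA embryos and 25.7% in normal-RNA embryos over 1227 lower CHH regions with a gene name. The median ratio was 26.0 in these members and 33.6 in those regions. In 12 of the 13 CHG members the depressed level was under 1%, as it was in 79.5% of lower CHG regions, with Mapk8ip1 as the exception.

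**Figure D4:**
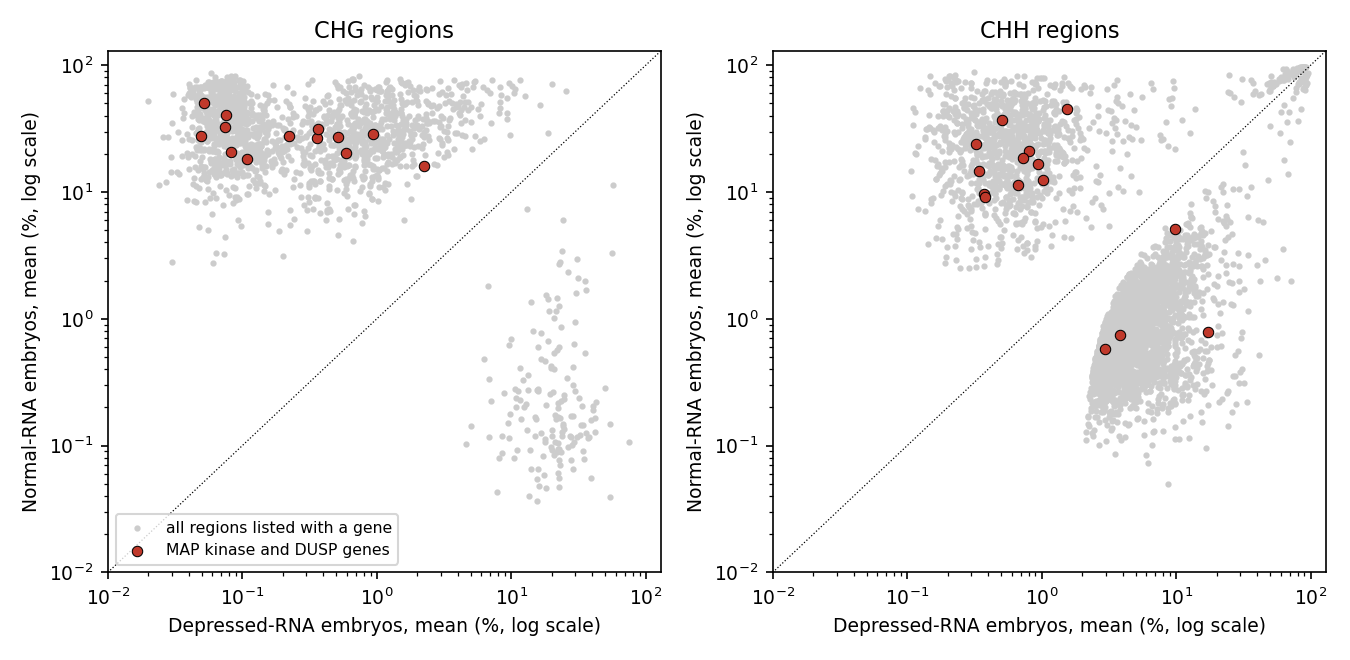
Authors' mean of depressed-RNA embryos (x axis, percent, log scale) and of normal-RNA embryos (y axis, percent, log scale) for all CHG and CHH regions listed with a gene name (grey) and for the members (red); the dotted line marks equal levels. All 13 CHG members and 11 CHH members lie above the line, among the grey points, and 4 CHH members lie below it.

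The annotation entries of the members are given beside those of all regions of the same context and direction. Of the 25 lower regions, 18 touched an exon or UTR and 14 a 3′ UTR of a listed gene. Without Mapk8ip3 these were 11 and 8 of 18. Among CHG members this was 10 of 13 for exons or UTRs (84.6% of lower CHG regions with a gene name) and 8 of 13 for the 3′ UTR (51.5%), from 6 genes. Among lower CHH members it was 7 of 11 (71.9% of such CHH regions) and 5 of 11 (49.6%). Without Mapk8ip3 the 3′ UTR counts were 5 CHG and 2 CHH regions. Those 4 that were higher, in Dusp10, Dusp11, Map3k5 and Map3k7cl, were all in introns without an exon or UTR entry, as were 92.8% of higher CHH regions with a gene name. Repeats were listed for 2 of the 13 CHG members (9.89% of lower CHG regions with a gene name), 3 of the 11 lower CHH members (21.8%) and 2 of the 4 higher ones (39.3%). CpG island shores were listed for 4 CHG members (12.7%) and 4 lower CHH members (14.2%), all in Mapk8ip1 or Mapk8ip3. A promoter entry of any gene stood at 5 of the 13 CHG members (16.1% of lower CHG regions with a gene name) and 4 of the 11 lower CHH members (16%). Without Mapk8ip3 these were 3 of 10 and 1 of 7. The entry was for the member gene itself in 3 of these regions, in Mapk6, Dusp11 and Mapk8ip3, and for neighbouring genes in the others. For 58 of the genes the RefSeq promoter table gives a window around a gene start, and 0 of all listed regions overlapped one of these, so no promoter sequence is shown. The same count over the windows of all genes was not made, so whether this is usual is not known.

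The higher and lower CHH regions also differed in how densely cytosines were counted. The 4 higher ones held 35.0 to 64.0 cytosines per 100 bp, and the 11 lower ones 4.51 to 25.8. The medians over the table differed in the same direction, with 51.0 per 100 bp for higher CHH regions with a gene name, against 20.5 for lower ones. How far the ranges of all higher and all lower CHH regions overlap was not counted. What part this density has in the direction was not tested.

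CHG and CHH regions coincided at 6 places, in each case in the same direction. At these places a CHG and a CHH member shared at least 1 base, among others in Mapk3, Mapk10, Mapk8ip1 and, at 2 places, Mapk8ip3. They make up 6 of the 13 CHG members and 6 of the 11 lower CHH members, beside 48.9% of lower CHG regions and 58.4% of lower CHH regions with a gene name. Over all regions with a gene name, overlaps were mostly of lower regions too. There 776 lower and 7 higher CHG regions overlapped a CHH region, and 717 lower and 7 higher CHH regions overlapped a CHG region. In normal-RNA embryos, the CHG level was above the CHH level in 6 of these 6 pairs, with a median ratio of 1.31 (1.11 to 2.15). Over 778 such pairs in the table the CHG level was the higher one in 64.3%, with a median ratio of 1.07. The 2 contexts come from the same libraries at the same place, so a pair is not 2 independent observations. Merged over contexts, the 29 regions fall on 23 places, and 0 CHG or CHH members overlapped a listed CG region.

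Other genes of the Ras and MAP kinase pathway were taken from lists of names, chosen with earlier results of these data known. Of 96 genes in all, 30 had a region (31.3%, beside 18% of protein-coding genes). Gene length was not adjusted for here either. Of the 96 genes, 12 had a lower CHG region (12.5%, beside 6.4% of all genes) and 8 a lower CHH region (8.33%, beside 5.37%). A higher CHH region was listed for 16 (16.7%, beside 9.11%) and a lower CG region for 3 (3.13%, beside 2.54%). Over all contexts, 16 of the 96 genes had a lower region and 16 a higher one.

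Among 12 Ras and Raf genes, 4 had a region. Mras, a Ras-like GTPase gene, had 2 CG regions with intron entries, at 8.63% in depressed-RNA embryos against 69.8% in normal-RNA embryos and at 2.76% in depressed-RNA embryos against 69.9% in normal-RNA embryos. In the Raf scaffold gene Ksr2 a CHG region in the 3′ UTR was at 0.0842% in depressed-RNA embryos against 40.5% in normal-RNA embryos, and an intronic CHH region at 29.5% in depressed-RNA embryos against 1.98% in normal-RNA embryos. Ksr1 and Rras2 had higher CHH regions only, and Hras, Nras, Araf and Braf had none. Of 21 genes of adaptors and Ras regulators, 8 had a region. A higher CHH region was listed for 5 of the 21 and a lower one for 1. The CG region of Shc4 was at 14.6% in depressed-RNA embryos against 75.7% in normal-RNA embryos. Gab2, an adaptor gene, had the only higher CHG region of the lists, over a CpG island at its promoter, at 16.7% in depressed-RNA embryos and 0.779% in normal-RNA embryos. Shc3 was at 0.194% in depressed-RNA embryos against 18.4% in normal-RNA embryos in CHG context.

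Among 13 negative regulators, 6 had a region. Regions were lower in depressed-RNA embryos in 4 of these genes and higher, in CHH context, in 2. Ptprr, which encodes a tyrosine phosphatase that inactivates ERK, had CHG levels of 0.0465% in depressed-RNA embryos against 46.0% in normal-RNA embryos at its 5′ UTR, and CHH levels of 0.446% in depressed-RNA embryos against 51.1% in normal-RNA embryos. Spry3 (on a scaffold outside the assembled chromosomes), Spred1 and Ppm1a had lower CHG regions as well. In the region with the largest absolute statistic, these genes were at 1.28, 0.111 and 0.144% in depressed-RNA embryos and 47.8, 27.0 and 19.8% in normal-RNA embryos. A second CHG region of Ppm1a, in the 3′ UTR, had a larger difference, at 0.128% in depressed-RNA embryos and 40.5% in normal-RNA embryos. Of 12 upstream kinases and GTPases 4 had a region, 2 with lower regions and 2 with higher CHH regions only. The lower ones were Pak1 (CHG, 0.0547% in depressed-RNA embryos and 46.3% in normal-RNA embryos) and Rac1 (CHG, 0.185% in depressed-RNA embryos and 20.7% in normal-RNA embryos), both in the 3′ UTR, the Rac1 region being listed for Daglb too. Of 10 other scaffold genes Spag9, which encodes a further JNK-interacting protein, was the only one, with a higher intronic CHH region at 4.05% in depressed-RNA embryos and 1.12% in normal-RNA embryos. Of 8 downstream kinases, Rps6ka1 (RSK1) had a CG region at 5.97% in depressed-RNA embryos against 66.7% in normal-RNA embryos, and Rps6ka5 a higher CHH region at 4.59% in depressed-RNA embryos against 0.966% in normal-RNA embryos.

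Nuclear targets of the cascade, transcription factors whose activity or expression it sets, had 5 of 20 genes in the table. Jun, the namesake substrate of the JNKs, was at 0.0594% in depressed-RNA embryos and 68.0% in normal-RNA embryos in a CHG region over its CpG island, promoter and exon (chromosome 4, 95050953 to 95051070, 11 cytosines). Mef2c was at 0.0729% in depressed-RNA embryos against 55.6% in normal-RNA embryos in its 3′ UTR, and Elk4, in a region also listed for Mfsd4a, at 4.55% in depressed-RNA embryos against 51.3% in normal-RNA embryos. Egr1, an immediate early gene that ERK induces, was at 0.0422% in depressed-RNA embryos against 19.9% in normal-RNA embryos. These 4 genes each had a lower CHH region too. Mef2c also had 2 higher CHH regions in introns, at 5.18% in depressed-RNA embryos against 0.471% in normal-RNA embryos and at 3.96% in depressed-RNA embryos against 0.370% in normal-RNA embryos. Mef2a had a higher CHH region only, in an intron and listed for Lysmd4 too, at 4.14% in depressed-RNA embryos and 0.759% in normal-RNA embryos.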

How the data were processed

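DNA of each embryo was bisulfite-converted and primed at random, per the labels' protocols. The submitters' processing notes name Trim Galore 0.3.3, Bismark, SAMtools and the build mm10. For the region caller, its thresholds and the combining of 3 embryos, a description was not given in the sources used here. The deposited table gives, per the file headers, group means as a fraction (multiplied to percent here), a signed difference and a score that sums along the region. Depth is unknown and the table holds 0 values per embryo, so no coverage minimum, test between embryos or leave-one-out was possible.

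Its 18732 entries were collapsed to 9707 regions by position and context. Of 4040 gene names, 3940 matched a RefSeq protein-coding gene (GRCm38.p6, the mm10 assembly) by symbol or unique synonym. Intervals are exact binomial (95%) and take regions as independent, though some share a place or a gene. Regions of different contexts counted as overlapping where they shared at least 1 base. Gene strands came from the RefSeq promoter table. Some genes are not reported here by name, though counts and medians include them. Every other member gene with a region is named. Of the other pathway genes only a selection is named, and several with higher CHH regions only are not. Members, lists and role classes were chosen with earlier results of these data known. Python 3.11.15, pandas 2.3.3 and scipy 1.17.1 were used, and the collapsing and overlap steps were checked on simulated data.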

Additional observations from a re-analysis of the deposited data

How the results depend on the processing

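With a difference of at least 20 percentage points, 4 lower and 0 higher CHH regions were left (of 11 and 4), 3 of them with an exon or UTR entry and 3 with a 3′ UTR entry (of 7 and 5), 0 higher CHH regions in introns (of 4), and 10 of 17 genes, with 4 of 12 in CHH, 0 of 2 MAP3K genes, 1 of 2 JNK scaffold genes and 0 of 1 other name. Higher CHH regions with a gene name had a median difference of 3.81 points, so most of them fall under the 20-point cut. With at least 10 cytosines, 6 of 13 CHG and 0 of 1 CG regions were left. The median over lower regions with a gene name was 10 cytosines in CHG and 5 in CG. With a statistic at or above the context median, a cut that by construction removes many regions of each context, 6 CHG, 4 lower and 2 higher CHH and 0 CG regions were left. Without chromosomes 9 and 10, 1 MAP3K gene was left. With Dusp7, whose CG, CHG and CHH regions were all lower, there were 2 CG regions. Without Mapk8ip3, chosen after seeing the data, 7 lower CHH regions were left, 3 in an exon or UTR and 2 in a 3′ UTR, and 5 CHG regions in a 3′ UTR (of 8). Counts were unchanged or within 1.5 times the reported ones in the other comparisons, such as merging contexts (19 lower and 4 higher), a distance to the gene of at most 10 kb, or 50% overlap. Adding Zak, an older name of Map3k20, after seeing the data gave 6 higher CHH regions and 18 genes. No paired analysis was possible because the table has no columns per embryo. Depth is unknown, so no precision can be given for any level.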
